A study of Mus musculus with 28 samples.

Results

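The comparison of Tgfbr1 KO and WT T cells given TGF-β plus IL-4 in culture rests on 6 of the 24 RNA-seq libraries, among 28 samples in all. These are 3 libraries of WT cells and 3 of KO cells, picked by culture and genotype. They were taken from a table of RPKM (read counts scaled by gene length and by the mapped reads of the library, a level comparable between genes because it is divided by gene length). Naive CD4+ T cells came from C57BL/6 mice with a floxed Tgfbr1 gene and a tamoxifen-inducible Cre (Tgfbr1 f/f ER-cre+). Mice given oil served as WT and mice given tamoxifen served as Tgfbr1 KO. Both groups carried the floxed alleles and the Cre, so that loss of the receptor cannot be told apart from exposure to tamoxifen. The cells were activated through CD3 and CD28 by antibodies, in medium alone (control), with TGF-β, with IL-4 or with both cytokines, and the labels number the libraries of each genotype 1, 2 and 3 in every culture, without saying whether a number marks a mouse. The Cre was not restricted to T cells, and the length of culture before RNA was taken is not given in the sources used here.

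TGF-β binds the receptor pair TGFBR2 and TGFBR1, and TGFBR1 then phosphorylates Smad2 and Smad3, which enter the nucleus with Smad4. IL-4 acts through STAT6 and raises Gata3. Together the cytokines turn activated naive CD4+ T cells into Th9 cells, which make IL-9, whereas TGF-β without IL-4 favors Foxp3+ regulatory T cells.

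The column headings of the table and the order of its columns disagree for 20 of the 24 columns, although 24 of 24 carry the same genotype either way. Columns were assigned in the order of the library numbers. For the 8 WT libraries with read counts at hand, the genes at 0 matched the column in that order 8 of 8 times, and the column with the matching heading 2 of 8 times. No read counts were at hand for KO, whose order was inferred. In that order, 9 of 9 IL-4 responsive genes with a mean of at least 1 RPKM were higher in all 6 KO columns with IL-4 than in the 6 without it, against 0 of 9 by heading. KO columns with IL-4 alone and with TGF-β plus IL-4 could not be told apart in this way. The same holds for KO control and KO TGF-β columns, and an exchange of those columns was not tested. Nor did WT replicate 2 of any culture have a read count, so the order is not fully proven. Comparisons with the control and TGF-β cultures rest on it too. Under the column headings, no gene passed the test below (limma, 0 higher and 0 lower, with 1821 genes at an unadjusted p under 0.05). The 6 libraries spanned depths of 0.794 to 1.32 relative to WT replicate 3. Their log2 values correlated at 0.9954 to 0.9985 within a genotype and at 0.9899 to 0.9918 between genotypes.

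All 12 of 12 T cell markers were detected. Of these, 0 were called higher and 1 lower (Lck), and 5 had a difference above 0 and 7 below 0 (median -0.16 on the log2 scale). Summed over the list, they lay between 3156 and 3188 RPKM in WT and between 2498 and 2729 RPKM in KO. Cd4 was at 75.6, 78.04 and 77.001 RPKM in WT replicates 1, 2 and 3 and 93.2, 101.7 and 96.7 RPKM in KO replicates 1, 2 and 3, and did not pass the fold threshold. Of 10 B cell markers 4 reached a mean of 1 RPKM, of 16 myeloid and dendritic markers 5, and of 6 erythroid markers 0. Of 5 NK cell markers 2 did, and the receptor Ncr1 was higher, at 1.04, 0.991 and 1.38 RPKM in WT replicates 1, 2 and 3 and 2.50, 3.09 and 2.18 RPKM in KO replicates 1, 2 and 3 (log2 difference 0.74 ± 0.12 (SE), adjusted p = 0.003). The other NK cell marker tested was not called, with a log2 difference of -0.08. The erythroid markers Hba-a1, Hbb-b1 and Hbb-bs were listed at 0 in all 6 libraries. Reads of low mapping quality were dropped by the authors, so a level of 0 need not mean absence. Summed over the list, myeloid and dendritic markers lay between 44.4 and 59.6 RPKM in WT and between 20.6 and 37.4 RPKM in KO. Of the 5 tested, all were below 0 in their difference, but 0 were called higher and 0 lower. Granulocyte markers lay between 97.1 and 129 RPKM in WT and between 8.47 and 39.0 RPKM in KO. Of the 7 tested, 0 were called higher and 3 lower, and 2 were above 0 in their difference. In bulk RNA, fewer cells of a type and less RNA per cell cannot be told apart.

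Of 9851 genes with a mean of at least 1 RPKM over the 6 libraries, 267 (2.71%) were higher and 564 (5.73%) were lower in KO. A gene was called when limma on log2(RPKM + 1) gave a Benjamini-Hochberg adjusted p under 0.01 and the levels differed by more than 1.5-fold on that scale, which understates the change of genes with low RPKM. The median difference over all genes was 0.01 on the log2 scale. The excess of lower genes rested on the fold threshold, since without it 979 genes were higher and 880 lower (52.7% higher, against 32.1% with it). With a minimum mean of 5 RPKM, fewer genes (6871) were tested, of which 202 were higher and 348 lower. Of these lower genes, 346 were also lower in the main fit. Differences of more than 2-fold were called for 59 higher and 253 lower genes, and differences of more than 4-fold for 2 higher and 44 lower genes. The 3 KO values lay outside the range of the 3 WT values for all 831 called genes, and for 4835 (49.1%) of the genes tested. Later remarks that the groups of a called gene did not overlap therefore add no evidence.

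**Figure D1:**
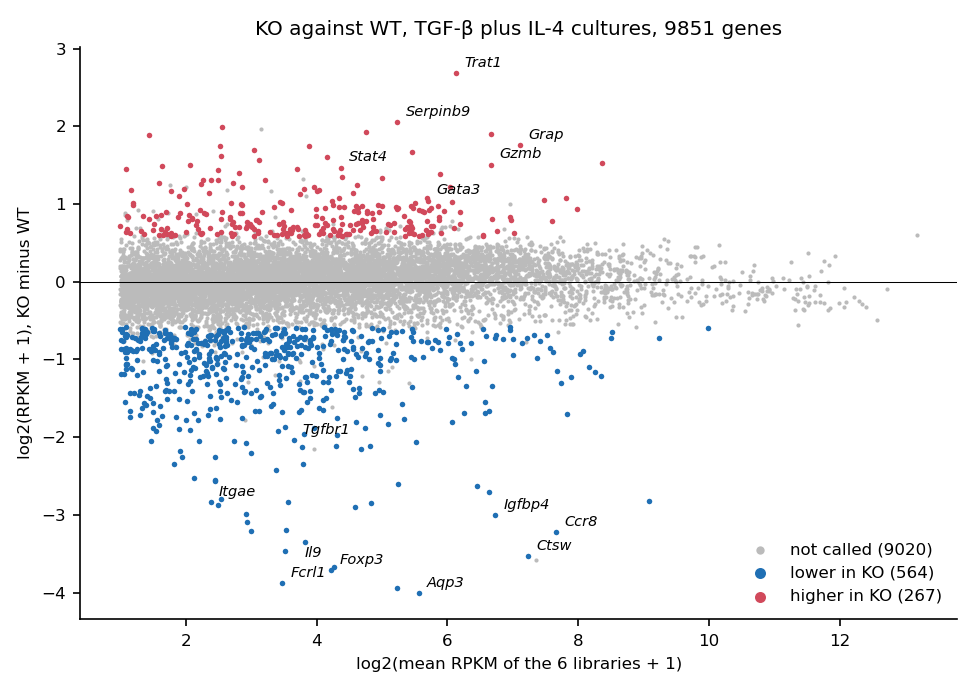
Each point is a gene, with its mean level over the 6 libraries on the horizontal axis (log2 of RPKM + 1) and the KO minus WT difference on the vertical axis (log2). The 564 genes lower in KO reach -4.01 (Aqp3), and the 267 higher genes reach 2.69 (Trat1).

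Tgfbr1 itself stood at 17.6, 19.5 and 20.7 RPKM in WT replicates 1, 2 and 3 and 3.45, 5.18 and 3.35 RPKM in KO replicates 1, 2 and 3 (log2 difference -2.04 ± 0.14 (SE), adjusted p = 4.4e-05). Every KO library was below every WT library, and none was at 0. The RPKM covers the whole gene and does not read the deleted part alone. In control cultures Tgfbr1 was at 3.20 ± 0.151 RPKM in WT and 2.64 ± 0.374 RPKM in KO (mean ± SD, n = 3 each). The genotypes thus differed there by -0.21 on the log2 scale, and the WT mean was 19.2 ± 1.56 RPKM under TGF-β plus IL-4 against 3.99 ± 1.03 RPKM in KO. The change in the KO minus WT difference from control to TGF-β plus IL-4 cultures was -1.83 ± 0.18 (SE), adjusted p = 3.5e-05.

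Other parts of the TGF-β pathway were also lower. Counts on this and later lists stand beside 2.71% higher and 5.73% lower over all genes tested. Of 30 ligands, receptors, Smads and regulators, 21 were tested, of which 0 were higher and 11 were lower, with a median difference of -0.82 (0.01 over all genes). The largest differences were in genes that restrain or feed the pathway. Ldlrad4, an inhibitor of Smad activation, was at 8.49, 8.02 and 8.41 RPKM in WT replicates 1, 2 and 3 and 0.417, 0.688 and 0.613 RPKM in KO replicates 1, 2 and 3 (log2 difference -2.57 ± 0.10 (SE), adjusted p = 1.8e-06). Skil, which encodes the Smad repressor SnoN, was at 10.2, 11.5 and 12.2 RPKM in WT replicates 1, 2 and 3 and 1.79, 2.02 and 1.92 RPKM in KO replicates 1, 2 and 3 (log2 difference -2.08 ± 0.09 (SE), adjusted p = 4.5e-06). The groups did not overlap for either gene, as for all called genes.

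Furin, the protease that processes the TGF-β precursor, was at 74.8, 73.3 and 70.9 RPKM in WT replicates 1, 2 and 3 and 15.5, 15.7 and 18.9 RPKM in KO replicates 1, 2 and 3 (log2 difference -2.07 ± 0.08 (SE), adjusted p = 2.3e-06). Pmepa1, a feedback inhibitor, was at 7.09, 5.66 and 6.57 RPKM in WT replicates 1, 2 and 3 and 0.726, 0.838 and 0.792 RPKM in KO replicates 1, 2 and 3 (log2 difference -2.06 ± 0.10 (SE), adjusted p = 7.2e-06). Smad7, the inhibitory Smad, was at 2.15, 1.88 and 2.26 RPKM in WT replicates 1, 2 and 3 and 0.257, 0.667 and 0.379 RPKM in KO replicates 1, 2 and 3 (log2 difference -1.12 ± 0.12 (SE), adjusted p = 0.00045). All 3 genes had their lowest WT value above their highest KO value. Smad3, the receptor-activated Smad, was at 4.41, 5.20 and 5.24 RPKM in WT replicates 1, 2 and 3 and 3.19, 4.27 and 3.41 RPKM in KO replicates 1, 2 and 3 (log2 difference -0.37 ± 0.11 (SE), adjusted p = 0.0397). Its groups did not overlap either, as for 49.1% of the genes tested, but it did not pass the test.

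Of 20 established TGF-β target genes, 15 were tested, with 1 higher and 11 lower and a median of -1.49. The lower members Smad7, Skil, Ski, Pmepa1, Tgfb1 and Furin were also counted on the pathway list above, so these counts are not separate evidence. Foxp3, the regulator of regulatory T cells, was at 31.4, 34.8 and 34.8 RPKM in WT replicates 1, 2 and 3 and 1.27, 1.89 and 1.81 RPKM in KO replicates 1, 2 and 3 (log2 difference -3.71 ± 0.11 (SE), adjusted p = 5.1e-07). Itgae, the αE integrin chain CD103, was at 7.001, 8.69 and 8.76 RPKM in WT replicates 1, 2 and 3 and 0.254, 0.230 and 0.358 RPKM in KO replicates 1, 2 and 3 (log2 difference -2.83 ± 0.11 (SE), adjusted p = 2e-06), and Nt5e, the ectonucleotidase CD73, was at 18.3, 19.8 and 21.2 RPKM in WT replicates 1, 2 and 3 and 0.769, 2.31 and 0.967 RPKM in KO replicates 1, 2 and 3 (log2 difference -3.20 ± 0.22 (SE), adjusted p = 3.6e-05). For these genes all KO libraries lay under 3 RPKM. Id3, an inhibitor of E proteins, was the single higher member, at 19.6, 20.8 and 21.9 RPKM in WT replicates 1, 2 and 3 and 38.3, 41.7 and 38.9 RPKM in KO replicates 1, 2 and 3 (log2 difference 0.90 ± 0.07 (SE), adjusted p = 5.3e-05), and Id1 of the same family was lower, at 25.6, 25.5 and 24.1 RPKM in WT replicates 1, 2 and 3 and 8.48, 7.57 and 8.85 RPKM in KO replicates 1, 2 and 3 (log2 difference -1.49 ± 0.08 (SE), adjusted p = 8.7e-06).

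**Figure D2:**
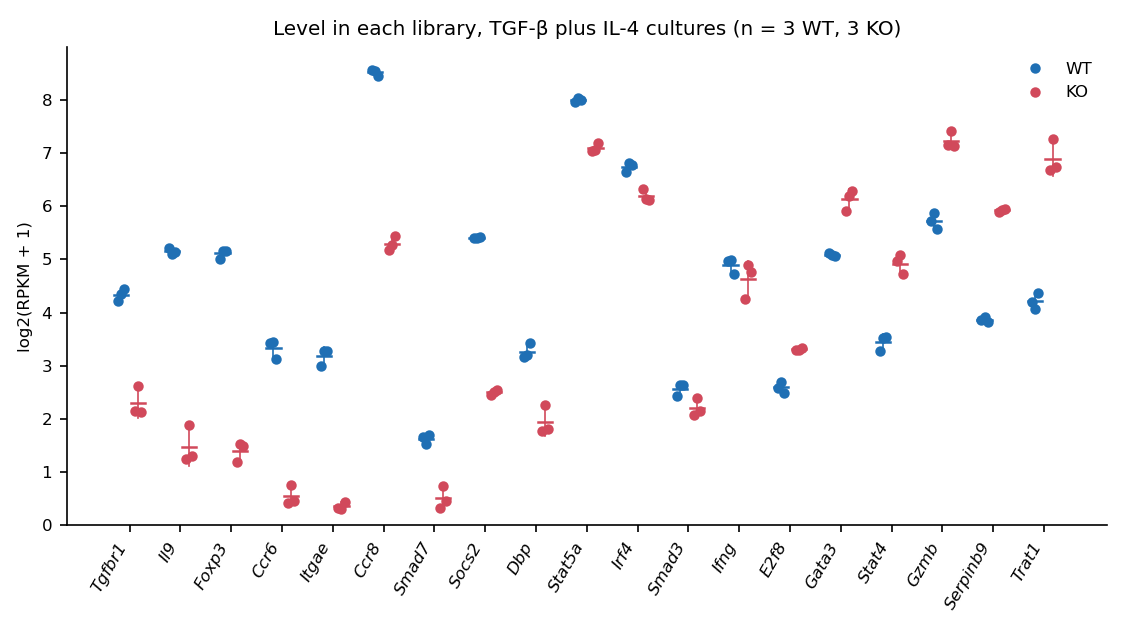
Level of 19 genes in each library of the TGF-β plus IL-4 cultures, as log2(RPKM + 1). Points are libraries (3 WT, 3 KO), long bars the means and thin bars the SD, and WT and KO points overlap for Ifng among the genes shown.

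Il9, the cytokine that defines Th9 cells, was at 36.1, 33.6 and 34.1 RPKM in WT replicates 1, 2 and 3 and 1.38, 2.72 and 1.46 RPKM in KO replicates 1, 2 and 3 (log2 difference -3.67 ± 0.16 (SE), adjusted p = 4.5e-06). The WT libraries were within a few RPKM of one another, and every KO library was below 3 RPKM. Mean Il9 levels in the other WT cultures were 9.66 ± 1.40 RPKM in control, 14.997 ± 2.20 RPKM with IL-4 and 43.7 ± 3.17 RPKM with TGF-β (SD, n = 3 each). The corresponding KO levels were 0.369 ± 0.186, 0.872 ± 0.0312 and 1.85 ± 0.796 RPKM. Il9 was thus lower in KO in all 4 cultures, and its KO minus WT difference under both cytokines was not called different from that in control cultures (difference -0.71 ± 0.23 (SE), adjusted p = 0.0577).

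Among 25 genes tied to Th9 cells, 20 were tested, of which 2 were higher and 8 lower, with a median of -0.58. Dbp, a PAR bZIP factor with circadian expression, was at 8.01, 8.25 and 9.72 RPKM in WT replicates 1, 2 and 3 and 2.42, 3.79 and 2.49 RPKM in KO replicates 1, 2 and 3 (log2 difference -1.32 ± 0.15 (SE), adjusted p = 0.00044). Stat5a, which carries IL-2 signals, was at 248, 262 and 255 RPKM in WT replicates 1, 2 and 3 and 130.8, 131.9 and 144.3 RPKM in KO replicates 1, 2 and 3 (log2 difference -0.91 ± 0.06 (SE), adjusted p = 2.8e-05). Both were lower in every KO library. Stat5a and Stat5b are close in sequence, and reads of low mapping quality were dropped by the authors, so stretches that both genes share may be undercounted. Stat5b differed by -0.99.

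Ccl20, the ligand of Ccr6, was at 5.71, 5.55 and 4.22 RPKM in WT replicates 1, 2 and 3 and 0.546, 0.325 and 0.195 RPKM in KO replicates 1, 2 and 3 (log2 difference -2.18 ± 0.14 (SE), adjusted p = 2.8e-05), and Foxo1, a factor of T cell homeostasis, differed by -1.23. Irf4, a factor needed by Th9 cells, was at 98.5, 111.9 and 108.1 RPKM in WT replicates 1, 2 and 3 and 79.3, 69.2 and 68.7 RPKM in KO replicates 1, 2 and 3 (log2 difference -0.55 ± 0.08 (SE), adjusted p = 0.0012), short of the fold threshold although its groups did not overlap. E2f8, a transcriptional repressor of the cell cycle, was higher, at 5.01, 5.51 and 4.62 RPKM in WT replicates 1, 2 and 3 and 8.80, 8.77 and 9.11 RPKM in KO replicates 1, 2 and 3 (log2 difference 0.71 ± 0.08 (SE), adjusted p = 0.0006).

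Gata3, the Th2 factor, was the other higher member, at 33.6, 32.98 and 32.3 RPKM in WT replicates 1, 2 and 3 and 59.003, 71.99 and 77.3 RPKM in KO replicates 1, 2 and 3 (log2 difference 1.04 ± 0.09 (SE), adjusted p = 0.00017). All KO libraries were above all WT libraries. Of 15 tested genes of Th2 cells and the IL-4 response, 2 were higher, namely Gata3 and Gfi1 (1.30), a repressor that supports Th2 growth. The 4 lower members included the chemokine receptor Ccr8, at 379, 370.1 and 348 RPKM in WT replicates 1, 2 and 3 and 35.2, 37.6 and 42.6 RPKM in KO replicates 1, 2 and 3 (log2 difference -3.22 ± 0.08 (SE), adjusted p = 3.2e-07). They also included the transcription factor Maf (-1.18) and the retinoic acid receptor Rara (-1.09). The median of the list was -0.24.

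Genes of regulatory and Th17 cells were mostly lower in KO. Of 15 tested regulatory T cell genes 0 were higher and 9 lower, with a median of -1.32. Beside Foxp3, Nt5e and Itgae, Socs2, a suppressor of cytokine signaling, was at 41.2, 41.2 and 41.6 RPKM in WT replicates 1, 2 and 3 and 4.50, 4.70 and 4.86 RPKM in KO replicates 1, 2 and 3 (log2 difference -2.90 ± 0.06 (SE), adjusted p = 2.1e-07). Of 9 tested Th17 genes 0 were higher and 8 lower, with a median of -1.62. Ccr6, a Th17 chemokine receptor, was at 9.79, 9.88 and 7.76 RPKM in WT replicates 1, 2 and 3 and 0.345, 0.681 and 0.374 RPKM in KO replicates 1, 2 and 3 (log2 difference -2.79 ± 0.13 (SE), adjusted p = 5.6e-06). Its highest KO value was below its lowest WT value by more than 6 RPKM. Il6ra, an IL-6 receptor chain, was at 18.7, 20.02 and 18.6 RPKM in WT replicates 1, 2 and 3 and 4.07, 8.58 and 4.16 RPKM in KO replicates 1, 2 and 3 (log2 difference -1.67 ± 0.23 (SE), adjusted p = 0.0011), with KO replicate 2 above the other KO libraries. The cytokine Il17f was low throughout, at 2.41, 2.85 and 3.13 RPKM in WT replicates 1, 2 and 3 and 0.286, 0.0442 and 0.133 RPKM in KO replicates 1, 2 and 3.

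Cytotoxic genes moved in both directions. Of 10 tested members 4 were higher and 2 lower, with a median of 0.33. Gzmb, the protease granzyme B, was at 51.97, 57.5 and 46.4 RPKM in WT replicates 1, 2 and 3 and 140.4, 169 and 139.2 RPKM in KO replicates 1, 2 and 3 (log2 difference 1.51 ± 0.10 (SE), adjusted p = 3.5e-05). Crtam, a receptor of cytotoxic lymphocytes, was at 19.97, 20.6 and 19.7 RPKM in WT replicates 1, 2 and 3 and 67.2, 65.3 and 65.9 RPKM in KO replicates 1, 2 and 3 (log2 difference 1.67 ± 0.05 (SE), adjusted p = 6.8e-07). Ctsw, the lymphocyte protease cathepsin W, went the other way, at 282, 266 and 278 RPKM in WT replicates 1, 2 and 3 and 20.6, 24.98 and 23.4 RPKM in KO replicates 1, 2 and 3 (log2 difference -3.53 ± 0.07 (SE), adjusted p = 2.1e-07), as did Nkg7, a granule protein of killer cells, at 141.8, 145.1 and 136.6 RPKM in WT replicates 1, 2 and 3 and 41.9, 57.9 and 44.6 RPKM in KO replicates 1, 2 and 3 (log2 difference -1.55 ± 0.11 (SE), adjusted p = 4.9e-05). None of these 4 genes had overlapping groups, as held for all 831 called genes and for 49.1% of the genes tested. Serpinb9, the intracellular inhibitor of granzyme B, was among the 10 higher genes with the largest difference, at 13.5, 14.1 and 13.2 RPKM in WT replicates 1, 2 and 3 and 58.4, 60.2 and 60.9 RPKM in KO replicates 1, 2 and 3 (log2 difference 2.06 ± 0.06 (SE), adjusted p = 3.9e-07). Cst7, the protease inhibitor cystatin F, was another, at 42.3, 43.2 and 40.9 RPKM in WT replicates 1, 2 and 3 and 164, 162 and 154 RPKM in KO replicates 1, 2 and 3 (log2 difference 1.90 ± 0.05 (SE), adjusted p = 3.9e-07).

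Of 14 tested Th1 genes 2 were higher and 3 lower, with a median of -0.22. Stat4, which carries IL-12 signals, was at 8.73, 10.5 and 10.7 RPKM in WT replicates 1, 2 and 3 and 30.3, 32.8 and 25.4 RPKM in KO replicates 1, 2 and 3 (log2 difference 1.47 ± 0.11 (SE), adjusted p = 7.1e-05), and Eomes, a T-box factor, was at 1.02, 1.49 and 1.31 RPKM in WT replicates 1, 2 and 3 and 3.34, 3.11 and 3.21 RPKM in KO replicates 1, 2 and 3 (log2 difference 0.90 ± 0.10 (SE), adjusted p = 0.00054). The receptor Cxcr3 was lower, at 19.1, 20.4 and 18.6 RPKM in WT replicates 1, 2 and 3 and 5.84, 8.60 and 5.69 RPKM in KO replicates 1, 2 and 3 (log2 difference -1.42 ± 0.14 (SE), adjusted p = 0.00023). Ifng, the Th1 cytokine, was at 30.4, 30.9 and 25.5 RPKM in WT replicates 1, 2 and 3 and 17.99, 28.6 and 26.3 RPKM in KO replicates 1, 2 and 3 (log2 difference -0.26 ± 0.16 (SE), adjusted p = 0.245), and its groups overlapped.

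Activation cytokines also split, with 5 higher and 3 lower of 14 tested and a median of 0.35. Tnfsf8, the CD30 ligand, was at 9.76, 10.5 and 10.5 RPKM in WT replicates 1, 2 and 3 and 45.1, 43.5 and 37.2 RPKM in KO replicates 1, 2 and 3 (log2 difference 1.93 ± 0.08 (SE), adjusted p = 3.7e-06), and its receptor Tnfrsf8 was at 0.970, 1.24 and 1.34 RPKM in WT replicates 1, 2 and 3 and 4.01, 5.78 and 5.84 RPKM in KO replicates 1, 2 and 3 (log2 difference 1.498 ± 0.14 (SE), adjusted p = 0.0002). Both members of the pair were thus higher in every KO library. Csf1, the macrophage growth factor, differed by 1.45 and Tnfsf11, the RANK ligand, by 1.34. Lta, lymphotoxin α, was lower, at 174, 180.4 and 162 RPKM in WT replicates 1, 2 and 3 and 25.96, 23.2 and 27.7 RPKM in KO replicates 1, 2 and 3 (log2 difference -2.70 ± 0.08 (SE), adjusted p = 3.9e-07). Chemokine ligands had 0 higher and 4 lower of 11 tested, among them Ccl1, the ligand of Ccr8, at 159.7, 142.7 and 148.5 RPKM in WT replicates 1, 2 and 3 and 24.5, 21.4 and 24.3 RPKM in KO replicates 1, 2 and 3 (log2 difference -2.63 ± 0.07 (SE), adjusted p = 3.9e-07). Chemokine receptors had 1 higher and 5 lower of 10 tested. The higher one was Gpr183, a receptor for oxysterols that guides lymphocytes (1.16).

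Of 20 tested cytokine receptor chains 1 was higher and 7 were lower, with a median of -0.15. Il15ra, the IL-15 receptor α chain, was at 3.61, 4.68 and 4.78 RPKM in WT replicates 1, 2 and 3 and 12.7, 11.3 and 12.8 RPKM in KO replicates 1, 2 and 3 (log2 difference 1.31 ± 0.11 (SE), adjusted p = 0.0001). Il2rb, the β chain shared by the IL-2 and IL-15 receptors, was at 276, 289 and 281 RPKM in WT replicates 1, 2 and 3 and 116.4, 132.2 and 132.8 RPKM in KO replicates 1, 2 and 3 (log2 difference -1.14 ± 0.06 (SE), adjusted p = 1.6e-05). The chains of the IL-15 receptor thus differed in opposite directions. Inhibitory receptors had 0 higher and 3 lower of 13 tested, including Pdcd1, which encodes PD-1, at 95.8, 95.6 and 87.3 RPKM in WT replicates 1, 2 and 3 and 46.4, 41.1 and 45.3 RPKM in KO replicates 1, 2 and 3 (log2 difference -1.05 ± 0.07 (SE), adjusted p = 2.8e-05). Costimulatory receptors had 1 higher and 4 lower of 12, with Icos at 60.1, 65.4 and 66.9 RPKM in WT replicates 1, 2 and 3 and 33.8, 32.3 and 30.9 RPKM in KO replicates 1, 2 and 3 (log2 difference -0.97 ± 0.06 (SE), adjusted p = 3.1e-05).

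Among the lists counted, mitosis had the most higher genes. Of 30 tested members 22 were higher and 0 lower, 30 of 30 differences were above 0, and the median was 0.71. Kif23, a kinesin of the midzone, was at 3.96, 4.16 and 3.45 RPKM in WT replicates 1, 2 and 3 and 9.05, 8.83 and 8.11 RPKM in KO replicates 1, 2 and 3 (log2 difference 0.99 ± 0.09 (SE), adjusted p = 0.00017). Ccnb1, cyclin B1, was at 20.996, 23.9 and 17.6 RPKM in WT replicates 1, 2 and 3 and 44.05, 41.7 and 38.8 RPKM in KO replicates 1, 2 and 3 (log2 difference 0.97 ± 0.11 (SE), adjusted p = 0.00045), and Aurkb, a kinase of chromosome segregation, was at 37.1, 37.04 and 33.3 RPKM in WT replicates 1, 2 and 3 and 67.95, 69.3 and 72.2 RPKM in KO replicates 1, 2 and 3 (log2 difference 0.95 ± 0.06 (SE), adjusted p = 3.1e-05). The differences were close to 2-fold or less, and larger than the spread of the libraries. Genes of DNA replication were all above 0 as well (30 of 30), but 3 passed the test, namely Rrm2, Ccne1 and Mcm10, and the median was 0.34. Rrm2, a subunit of ribonucleotide reductase, was at 146.4, 151 and 128.9 RPKM in WT replicates 1, 2 and 3 and 242, 245 and 246 RPKM in KO replicates 1, 2 and 3 (log2 difference 0.78 ± 0.07 (SE), adjusted p = 0.00012). The E2F family had 1 higher (E2f8) and 0 lower of 13. Of the Myc, cyclin and CDK inhibitor genes, 0 of 11 were higher and 3 lower, and all 3 restrain growth: Mxd4 (-1.62), a Myc antagonist, and the CDK inhibitors Cdkn1b (-0.94) and Cdkn2d (-0.59).

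**Figure D3:**
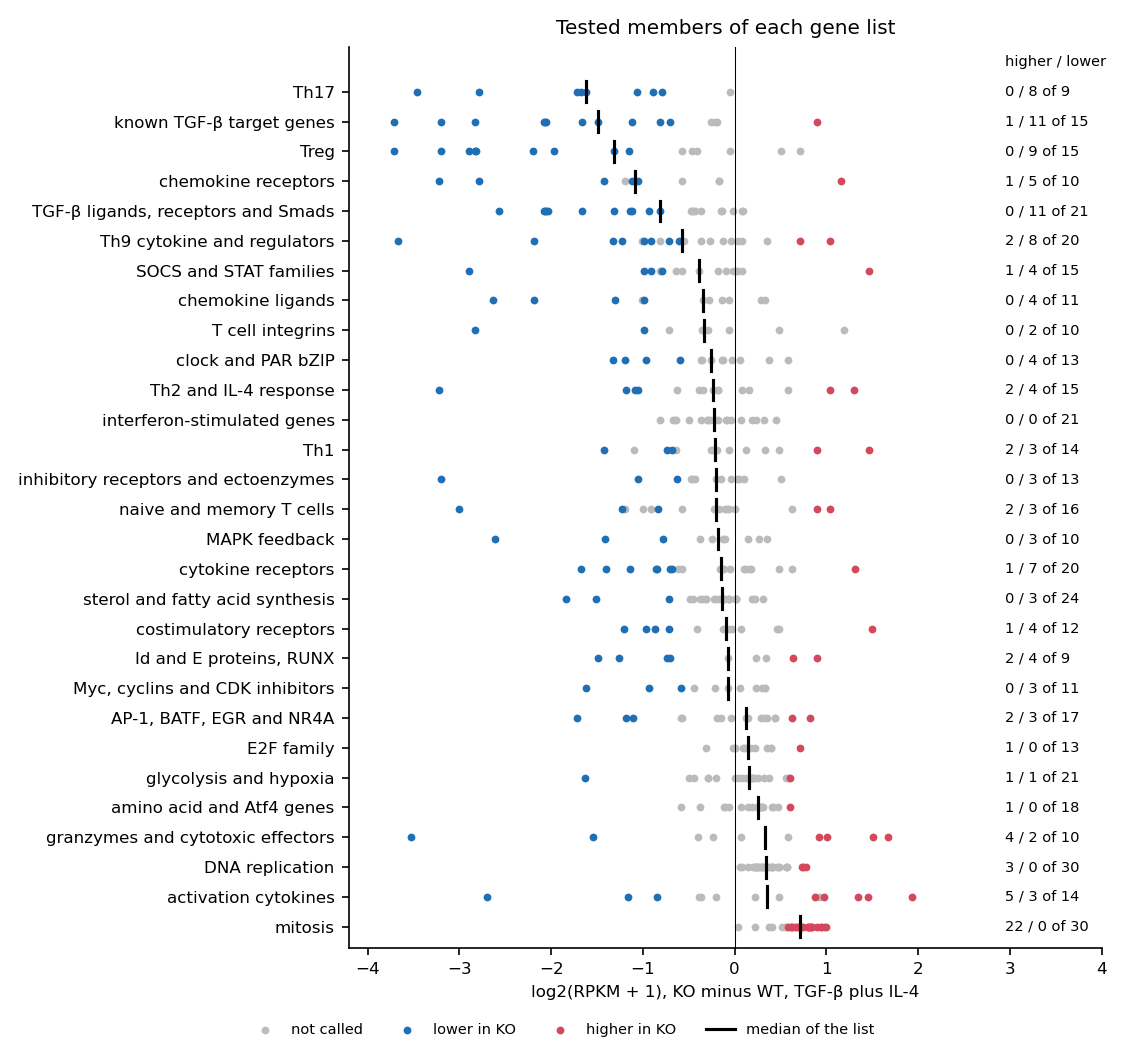
Each point is a tested gene at its KO minus WT difference (log2), in rows by gene list and ordered by the list's median (black bar). The medians run from -1.62 for Th17 genes to 0.71 for mitosis genes, and the numbers at the right give the higher and lower members of those tested.

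The largest single differences fell outside these groups in part. Aqp3, a channel for water and glycerol, was at 88.6, 82.7 and 92.1 RPKM in WT replicates 1, 2 and 3 and 3.14, 6.31 and 4.55 RPKM in KO replicates 1, 2 and 3 (log2 difference -4.01 ± 0.18 (SE), adjusted p = 4.5e-06). Fcrl1, an Fc receptor-like protein best known in B cells, was at 20.4, 20.6 and 18.3 RPKM in WT replicates 1, 2 and 3 and 0.254, 0.551 and 0.457 RPKM in KO replicates 1, 2 and 3 (log2 difference -3.88 ± 0.11 (SE), adjusted p = 3.9e-07). Igfbp4, a binding protein for insulin-like growth factors, was at 167, 194 and 204 RPKM in WT replicates 1, 2 and 3 and 22.9, 22.4 and 22.4 RPKM in KO replicates 1, 2 and 3 (log2 difference -3.00 ± 0.08 (SE), adjusted p = 3.9e-07). For all of these the lowest WT value exceeded the highest KO value more than 7-fold. The B cell markers beside Fcrl1 summed to 17.1 to 37.2 RPKM in WT and 15.7 to 27.8 RPKM in KO, and 0 of the 4 tested passed. Fcrl1 differed while they did not pass, and their part in its difference was not tested.

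On the higher side, Trat1, an adaptor of the T cell receptor, was at 17.4, 15.7 and 19.6 RPKM in WT replicates 1, 2 and 3 and 101.5, 153 and 106.3 RPKM in KO replicates 1, 2 and 3 (log2 difference 2.69 ± 0.15 (SE), adjusted p = 1.7e-05), with KO replicate 2 highest. Grap, an adaptor of the Grb2 family, was at 62.2, 61.2 and 62.3 RPKM in WT replicates 1, 2 and 3 and 213, 213 and 209.7 RPKM in KO replicates 1, 2 and 3 (log2 difference 1.76 ± 0.05 (SE), adjusted p = 3.9e-07). Arc, a gene rapidly induced by activation, was at 1.30, 1.37 and 1.42 RPKM in WT replicates 1, 2 and 3 and 8.09, 8.27 and 8.74 RPKM in KO replicates 1, 2 and 3 (log2 difference 1.99 ± 0.08 (SE), adjusted p = 2.8e-06). Every KO library was higher for the 3 genes, which the choice of these genes required. Wnt10a, a Wnt ligand, was at 0.200, 0.0765 and 0.168 RPKM in WT replicates 1, 2 and 3 and 2.82, 3.08 and 3.95 RPKM in KO replicates 1, 2 and 3, so that its WT level was close to 0. The remaining 3 of the 10 were the transporter Slco4a1 (1.75), the carbonic anhydrase Car1 (1.75) and the phosphatase Ptpn5 (1.70).

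Genes of granulocytes and their precursors were among the lower genes. S100a8, a subunit of calprotectin, was at 79.3, 64.9 and 56.4 RPKM in WT replicates 1, 2 and 3 and 5.14, 12.5 and 0 RPKM in KO replicates 1, 2 and 3 (log2 difference -3.95 ± 0.80 (SE), adjusted p = 0.007). S100a9, the other subunit, was at 30.1, 23.2 and 19.7 RPKM in WT replicates 1, 2 and 3 and 2.19, 3.59 and 0 RPKM in KO replicates 1, 2 and 3 (log2 difference -3.35 ± 0.49 (SE), adjusted p = 0.0016). Chil3, a chitinase-like protein of myeloid cells with near-identical paralogs whose shared stretches may be undercounted, was at 16.4, 14.7 and 8.88 RPKM in WT replicates 1, 2 and 3 and 0.414, 1.42 and 0 RPKM in KO replicates 1, 2 and 3 (log2 difference -3.21 ± 0.33 (SE), adjusted p = 0.00031). All 3 were listed at 0 in KO replicate 3, and their KO libraries varied by more than those of the T cell genes above. Of the 7 granulocyte markers found, 0 were higher and 3 lower, the third being Elane, neutrophil elastase, at 7.26, 4.02 and 3.32 RPKM in WT replicates 1, 2 and 3 and 0.146, 1.36 and 0.305 RPKM in KO replicates 1, 2 and 3 (log2 difference -1.89 ± 0.31 (SE), adjusted p = 0.0028). Mpo, Csf3r, Mcpt8 and Prg2 did not pass the test, with Mpo at 1.25, 0.530 and 1.27 RPKM in WT replicates 1, 2 and 3 and 0.949, 2.92 and 1.26 RPKM in KO replicates 1, 2 and 3 and Prg2 at 4.27, 3.94 and 6.75 RPKM in WT replicates 1, 2 and 3 and 1.48, 10.2 and 0.112 RPKM in KO replicates 1, 2 and 3. None of the 7 markers was at 0 in all 6 libraries, and the part of other cells in these differences was not tested. Cd8a, a marker of CD8 T cells, was also lower, at 8.87, 8.48 and 8.13 RPKM in WT replicates 1, 2 and 3 and 1.48, 3.85 and 1.99 RPKM in KO replicates 1, 2 and 3 (log2 difference -1.52 ± 0.22 (SE), adjusted p = 0.0015), whereas Cd8b1 was at 16.4, 18.3 and 18.4 RPKM in WT replicates 1, 2 and 3 and 24.8, 24.5 and 25.1 RPKM in KO replicates 1, 2 and 3 and did not pass the fold threshold.

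Cells of both genotypes were also kept in the other cultures, so the KO minus WT difference could be compared between cultures by an interaction term. Against control cultures, the difference was more positive under TGF-β plus IL-4 for 137 genes (1.4%) and more negative for 271 (2.78%) of 9756 tested. Against IL-4 cultures it was more positive for 112 (1.15%) and more negative for 300 (3.07%) of 9765. Against TGF-β cultures it was more positive for 29 (0.296%) and more negative for 70 (0.715%) of 9784. These comparisons share the 6 TGF-β plus IL-4 libraries. The count against TGF-β was 65 with no filter on low values and 155 at an adjusted p under 0.05, and the count against IL-4 was 652 without a fold threshold. Without KO replicate 2 of that culture the counts rose from 408 to 681 against control, from 412 to 812 against IL-4 and from 99 to 240 against TGF-β. The count against TGF-β fell to 62 without WT replicate 3 of TGF-β plus IL-4, to 64 without WT replicate 1 of TGF-β and to 59 without KO replicate 3 of TGF-β.

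Aqp3 was at 2.34 ± 0.310 RPKM in WT control and 1.25 ± 0.409 RPKM in KO control cultures (SD, n = 3 each), and its interaction was -3.43 ± 0.26 (SE), adjusted p = 3.1e-06. Chil3 (-2.94), the ubiquitin ligase subunit Fbxo2 (-2.91) and Nt5e (-2.70) were the next most negative. Chil3, Fbxo2 and Nt5e had a mean under 1 RPKM over the 6 control libraries. Against IL-4 cultures the most negative were Aqp3 (-3.53), Nt5e (-3.02), Fbxo2 (-2.90) and Foxp3 (-2.85). Against TGF-β cultures none of these 5 genes was called. For Foxp3 the WT mean was 64.3 ± 8.15 RPKM with TGF-β alone and the KO mean 4.21 ± 0.474 RPKM.

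**Figure D4:**
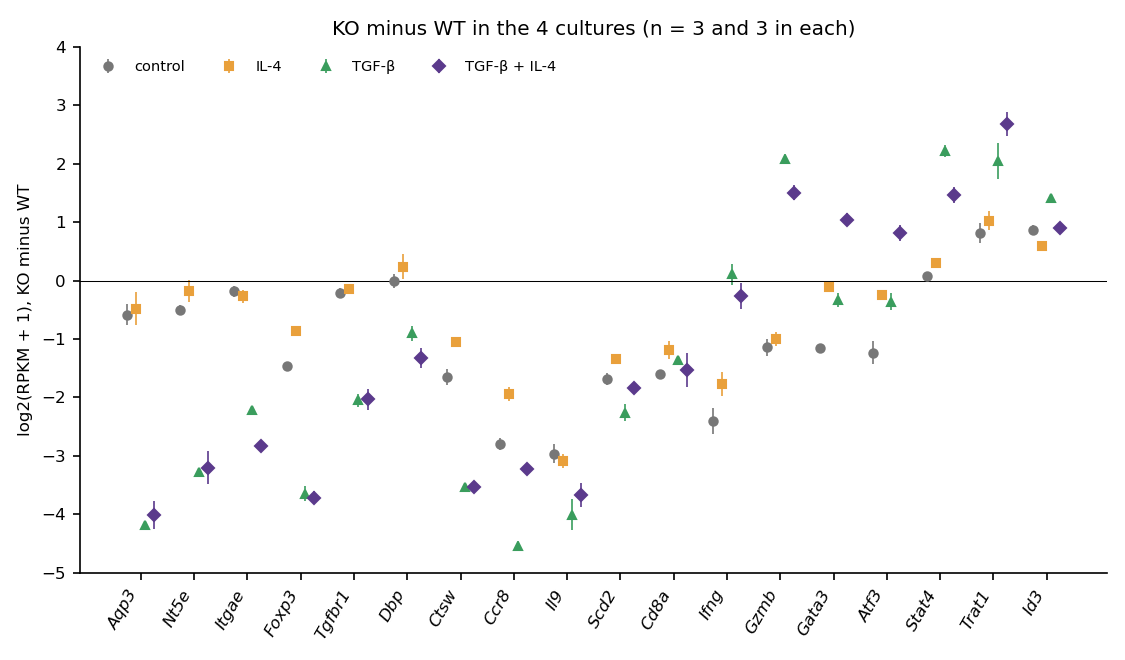
KO minus WT difference (log2) of 18 genes in control, IL-4, TGF-β and TGF-β plus IL-4 cultures, as the mean of 3 KO minus the mean of 3 WT libraries, with bars for the standard error from both SDs. Gzmb, Gata3 and Atf3 lie below 0 in control cultures and above 0 under TGF-β plus IL-4.

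Some effector genes had differences of opposite sign in the cultures. Gzmb was at 230.0 ± 32.03 RPKM in WT and 103.4 ± 10.5 RPKM in KO control cultures (SD, n = 3 each), a log2 difference of -1.14, against 1.51 under TGF-β plus IL-4 (interaction 2.65 ± 0.16 (SE), adjusted p = 5.4e-07). From control to TGF-β plus IL-4 cultures the WT mean went from the higher to the lower of the pair, at 51.97 ± 5.54 RPKM against 149.6 ± 17.003 RPKM in KO. Gata3 went from 21.2 ± 1.64 RPKM in WT and 8.91 ± 0.583 RPKM in KO control cultures to the higher KO level given above (interaction 2.20 ± 0.13 (SE), adjusted p = 4.9e-07). In IL-4 cultures Gata3 was at 71.8 ± 3.19 RPKM in WT and 67.1 ± 7.17 RPKM in KO. With both cytokines the means were 32.97 ± 0.623 RPKM in WT and 69.4 ± 9.41 RPKM in KO.

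In control cultures 61 genes (0.633%) were higher and 176 (1.82%) lower in KO, of 9644 tested. Among genes tested in both cultures, 82 were lower in KO in both and 29 were higher in both. Under TGF-β plus IL-4, 267 (2.71%) of all 9851 tested genes were higher in KO. Of the 176 genes lower in KO control cultures, 8 were higher in KO under TGF-β plus IL-4. They were Gzmb, Gata3, Atf3, Satb1, Csf2, Ajuba, Plaur and 6430571L13Rik, of which the last 3 were chosen after their values were seen. Csf2, which encodes GM-CSF, was at 1.90, 2.47 and 2.92 RPKM in WT replicates 1, 2 and 3 and 6.04, 5.33 and 4.50 RPKM in KO replicates 1, 2 and 3, against means of 5.86 ± 0.719 RPKM in WT and 2.81 ± 0.417 RPKM in KO control cultures. The chromatin organizer Satb1 was at 11.2, 10.98 and 11.7 RPKM in WT replicates 1, 2 and 3 and 23.7, 27.5 and 22.02 RPKM in KO replicates 1, 2 and 3. Ifng had a difference of -2.40 in control cultures and -0.26 under TGF-β plus IL-4 (interaction 2.14 ± 0.26 (SE), adjusted p = 0.00019). The cytokine gene Il3 had differences of -1.55 and 0.92, of which the second did not pass the test (interaction 2.46 ± 0.34 (SE), adjusted p = 0.00053). Gzma, granzyme A, had an interaction of 2.16.

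No gene was called when TGF-β was added to IL-4 in KO cells. Between the KO libraries with both cytokines and those with IL-4, 0 genes (0%) were higher and 0 lower of 9660 tested by limma, and 284 (2.94%) had an unadjusted p under 0.05. Libraries of these KO cultures with the same replicate number deviated together (correlations of 0.269, 0.418 and 0.320). With the number as a block, an alternative chosen after the data were seen, 0 genes were higher and 0 lower by limma, and 547 (5.66%) had an unadjusted p under 0.05. In WT cells the same comparison called 596 genes (6.06%) higher and 316 (3.21%) lower of 9829. These comparisons share libraries with those above, and the difference between the genotypes is the interaction against IL-4 cultures. Since the KO columns of these cultures could not be told apart by the IL-4 genes, the comparison of genotypes was also run with the KO IL-4 columns in place of the KO TGF-β plus IL-4 columns, an alternative chosen after the data were seen. It called 361 genes higher and 767 lower in KO, of which 241 and 526 were also called in the comparison above.

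DNase-seq, which maps open chromatin as DNase I hypersensitive sites (DHSs), was available for 1 WT and 1 KO library of the same culture, so that these values have no replicate check. The deposited lists held 33880 DHSs for WT and 27145 for KO, with 69.4% of the WT and 87.2% of the KO sites overlapping the other list by at least 1 bp. Depth is unknown, so a longer list cannot be told apart from deeper sequencing. Of the 9851 genes 9160 were located on mm9 by symbol, including 252 higher and 533 lower genes. A DHS listed in WT only lay in or within 10 kb of 61.7% of the lower genes (95% Wilson interval 57.5% to 65.8%), 44.8% of the higher genes (38.8% to 51.0%) and 39.4% of all genes located. A DHS listed in KO only lay near 23.6% of the lower genes (20.2% to 27.4%), 25.8% of the higher genes (20.8% to 31.5%) and 18.1% of all. The intervals cover counting error only. The median span was 21.5 kb for lower, 19.5 kb for higher and 21.2 kb for all genes.

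When the lists were limited to the same number of top sites, the WT-only share was 47.7% for lower, 31.0% for higher and 27.0% for all genes, and the KO-only share 36.2%, 33.3% and 26.0%. Lower genes thus stood above all genes in both classes, with the wider gap for WT-only sites.

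**Figure D5:**
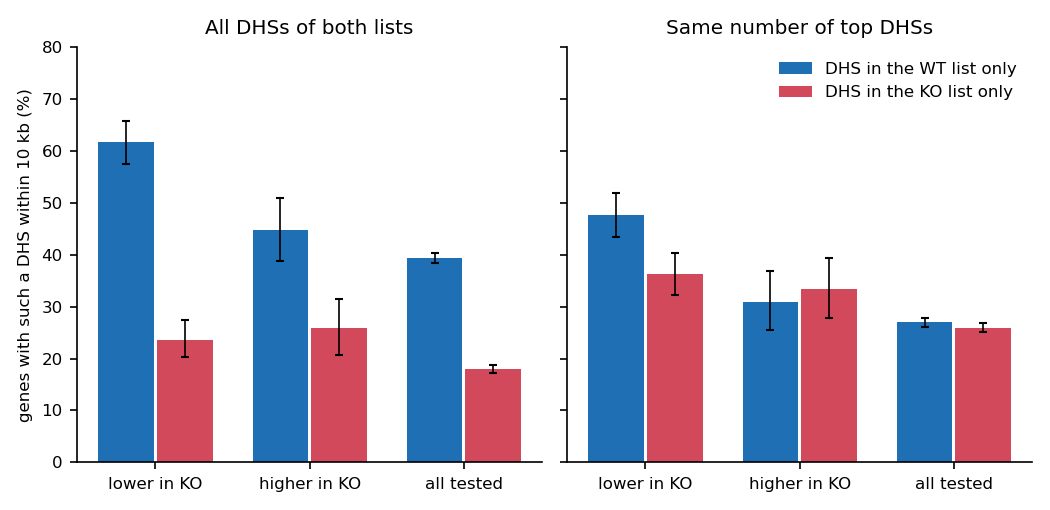
Percent of genes with a DHS listed in WT only (blue) or KO only (red) in the gene or within 10 kb, for genes lower in KO, higher in KO and all tested, with 95% Wilson intervals. With all DHSs the lower genes reach 61.7% for WT-only sites, and with lists of equal length 47.7%.

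Il9 had 3 DHSs within 10 kb, all present in both lists, and none in WT only. The strongest lay 5.33 kb beyond its start toward the 3′ side, with a −log10 p of 43.7 in WT and 25.8 in KO. Tgfbr1 had 2, both near its start and in both lists. Itgae had 4 DHSs absent from the KO list, 0 absent from the WT list and 2 in both. Fcrl1, Ccr8, S100a8 and S100a9 had none in WT only.

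Chil3 was not located on mm9 by symbol and could not be searched for DHSs. Among the 10 lower genes with the largest differences and Itgae, which was added by name, DHSs in WT only are shown for 4. These are stretches listed as open in WT and not in KO. Each is the DHS with the highest −log10 p among the WT-only sites at its gene. At Foxp3, a DHS present in both lists had a higher −log10 p in WT (45.5). The lines hold 101 bases around its summit on the plus strand of mm9, with CAGACA or its reverse complement TGTCTG in capitals, a hexamer that holds the CAGAC bound by Smad3 and Smad4.
Itgae: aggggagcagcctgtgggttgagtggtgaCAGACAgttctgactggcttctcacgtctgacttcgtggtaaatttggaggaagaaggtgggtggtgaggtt
Aqp3: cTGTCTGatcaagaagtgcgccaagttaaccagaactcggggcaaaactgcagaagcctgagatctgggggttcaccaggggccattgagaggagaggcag
Ctsw: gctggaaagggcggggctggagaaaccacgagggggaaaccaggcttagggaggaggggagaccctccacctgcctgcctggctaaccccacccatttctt
Foxp3: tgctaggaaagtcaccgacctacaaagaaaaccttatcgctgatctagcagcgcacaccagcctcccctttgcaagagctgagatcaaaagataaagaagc
The windows are chr11:72908245-72908345 for Itgae (intron, with its center 4.21 kb after the gene start, −log10 p 21.2) and chr4:41044287-41044387 for Aqp3 (intron, 0.88 kb after the start, 15.9). For Ctsw the window is chr19:5468532-5468632 (upstream, 0.08 kb before the start, 26.3). Foxp3 has chrX:7147988-7148088 (8.76 kb upstream, 15.6). CAGACA on either strand was in 2 of these 4 windows, those of Itgae, the gene added by name, and Aqp3.

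Over all windows of this length, CAGACA on either strand was found in 12.7% of the 10363 WT-only DHSs, 8.16% of the WT DHSs also listed in KO and 8.26% of the 3462 KO-only DHSs. TGANTCA, the core bound by AP-1 and BATF and its own reverse complement, was found in 5.65%, 6.74% and 14.2% of the same windows. The motifs were chosen with the lists known, the windows were not matched for base composition, and a match is no evidence of binding.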

How the data were processed

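Naive CD4+ T cells of 4 culture conditions and 2 genotypes were profiled by Smart-seq2 RNA-seq (24 libraries, 3 per group) and by DNase-seq, of which the 2 TGF-β plus IL-4 libraries were used here. For RNA-seq the authors used Bowtie2 and the mm9 build and dropped reads with a MAPQ (mapping quality) of 10 or less and duplicate reads, and they deposited RPKM per gene for 24089 genes, with no read totals, so that depth is given only relative to another library. Smart-seq2 does not mark strand, so overlapping genes on opposite strands cannot be told apart. The authors called DHSs on each library with MACS2 and deposited the −log10 p, the −log10 q and the fold enrichment of each site. Tool versions are not given in the sources used here.

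Columns were assigned by library order, as described above. The 6 libraries of the comparison were fitted with limma (R 4.3.3, limma 3.58.1) on log2(RPKM + 1), with an intensity trend, for genes with a mean of at least 1 RPKM. Genes were called at 0.01 for the adjusted p (Benjamini-Hochberg) and above 1.5-fold. Interactions used 12 libraries each. All adjusted p-values in the text are from these limma fits. The fit of the 6 libraries was also run on simulated data, with independent noise set by the spread of the WT libraries alone. That check does not cover the spread of the KO libraries or the interactions. Labels number the replicates without saying whether they are separate mice or cultures, so p-values measure only the spread between these libraries, which may be technical.

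Genes on 37 lists were counted, and named genes were Tgfbr1, 12 genes of the Th9 question, the 10 called genes with the largest difference in each direction and no overlap, up to 4 called members of each list (where none was called, the 2 with the highest mean), and the 5 largest called interactions in each direction against control and IL-4 cultures. The comparison, the lists and the named genes were chosen with earlier results of these data known. DHSs were assigned to genes of GENCODE vM1 (mm9) and sequences read from the mm9 genome. Alternatives changed the pseudocount, filter, scaling, moderation, thresholds, columns, replicates, DHS window and DHS lists. Columns of other cultures were used only for the interactions and levels given. Some genes that the rule picked are not reported here.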

Additional observations from a re-analysis of the deposited data

Results flagged for a closer look

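The KO minus WT difference under TGF-β plus IL-4 differed from that in other cultures, by a test of the interaction itself, for 408 genes against control, 412 against IL-4 and 99 against TGF-β cultures. These numbers count both directions and share the same 6 libraries.

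Among the named genes, the interaction against control cultures was negative for Aqp3 (-3.43 on the log2 scale), Chil3 (-2.94), Fbxo2 (-2.91), Nt5e (-2.70), Itgae (-2.65), Foxp3 (-2.25), Tgfbr1 (-1.83) and Dbp (-1.32). For each of them the KO minus WT difference was further below 0 under TGF-β plus IL-4 than in control cultures.

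The interaction was positive for Gzmb (2.65), Il3 (2.46), Gata3 (2.20), Gzma (2.16) and Ifng (2.14). All 5 had a difference below 0 in control cultures. Under TGF-β plus IL-4, Gzmb and Gata3 were higher in KO, and Il3, Gzma and Ifng did not pass the test. Mean Gzma levels were 30.5 ± 0.585 RPKM in WT and 9.67 ± 1.79 RPKM in KO control cultures, and 28.9 ± 1.41 and 47.02 ± 23.4 RPKM under TGF-β plus IL-4 (SD, n = 3 each), with KO replicate 2 at 73.8 RPKM.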

How the results depend on the processing

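With columns taken by their headings, the counts were 0 higher and 0 lower, and 0 for each of the 3 interactions. Genes of at least 5 RPKM gave 348 lower genes, of 6871 tested. Without a fold threshold there were 979 higher and 880 lower genes (52.7% higher, against 32.1%), and 652 interactions against IL-4. Interactions against TGF-β cultures numbered 65 with no filter, 155 at an adjusted p under 0.05 and 49 with a replicate block by number within genotype. Between genotypes the deviations of libraries with the same number correlated at 0.075, 0.035 and -0.252, and a replicate block gave 263 higher and 511 lower genes. Within a genotype, libraries of another culture with the same number correlated at -0.292 to 0.418 in their deviations. Every pair was above 0.1 for KO libraries with both cytokines and with IL-4, and not for the other cultures set against both cytokines, so the numbers were not taken as pairs in the interactions. The block gave 325 interactions against control and 497 against IL-4, and between WT libraries with both cytokines and with IL-4 it gave 600 higher and 322 lower genes. The causes were not tested. Other alternatives kept these counts within 1.5 times.

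Leaving out 1 library gave 208 to 305 higher and 418 to 811 lower genes, with 305 and 811 without KO replicate 2 of TGF-β plus IL-4. It gave 313 to 681 interactions against control, 299 to 812 against IL-4 and 59 to 240 against TGF-β, each highest without that library. Of the 112 named genes, Dusp5, at -0.78, reversed to 0.047 with the KO IL-4 columns in place of the KO TGF-β plus IL-4 columns.

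With 50 kb on each side, a WT-only DHS lay near 85.2% of lower, 70.6% of higher and 67.1% of all genes, and a KO-only DHS near 44.5%, 44.4% and 35.8%. At a −log10 q of at least 5, the KO-only shares were 20.1%, 19.1% and 14.1%. With equal numbers of top DHSs, the WT-only shares were 47.7%, 31.0% and 27.0% and the KO-only shares 36.2%, 33.3% and 26.0%. Unknown read totals and 1 DNase-seq library per genotype limit both assays.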

Other observations

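Several gene groups beside those of T cell subsets were counted in the same comparison. Over all 9851 genes tested, 2.71% were higher and 5.73% lower, so small counts on a list may be near these shares. Of 13 tested clock genes 0 were higher and 4 lower, with a median difference of -0.25. Beside Dbp they were the clock activator Npas2, at 6.75, 6.71 and 6.56 RPKM in WT replicates 1, 2 and 3 and 2.79, 2.05 and 2.28 RPKM in KO replicates 1, 2 and 3 (log2 difference -1.19 ± 0.10 (SE), adjusted p = 0.00011), its relative Arntl, which encodes BMAL1 (-0.97), and the repressor Nr1d1 (-0.60). The 4 members differed by 0.60 to 1.32 below 0, while 9 did not pass. Of 15 tested SOCS and STAT genes 1 was higher (Stat4) and 4 were lower, with a median of -0.38. Of 9 tested Id, E protein and RUNX genes 2 were higher and 4 lower, with Runx1 at 13.9, 14.2 and 14.1 RPKM in WT replicates 1, 2 and 3 and 4.75, 6.29 and 4.94 RPKM in KO replicates 1, 2 and 3 (log2 difference -1.26 ± 0.10 (SE), adjusted p = 9e-05) and Runx3 at -0.74 on the log2 scale. Naive and memory T cell genes had 2 higher and 3 lower of 16, with Igfbp4, Foxo1 and Satb1 as given above. Integrins had 0 higher and 2 lower of 10, namely Itgae and Itgb2, the β2 chain, at 217, 224 and 215 RPKM in WT replicates 1, 2 and 3 and 99.6, 117.3 and 114.2 RPKM in KO replicates 1, 2 and 3 (log2 difference -0.98 ± 0.07 (SE), adjusted p = 4.5e-05).

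Of 17 tested AP-1, BATF, EGR and NR4A genes 2 were higher and 3 lower, with Jun, an AP-1 subunit, at 46.2, 45.01 and 49.6 RPKM in WT replicates 1, 2 and 3 and 10.3, 19.5 and 12.4 RPKM in KO replicates 1, 2 and 3 (log2 difference -1.72 ± 0.19 (SE), adjusted p = 0.00048), and Atf3, a stress-induced factor, at 12.1, 11.99 and 9.61 RPKM in WT replicates 1, 2 and 3 and 23.4, 19.5 and 18.9 RPKM in KO replicates 1, 2 and 3 (log2 difference 0.82 ± 0.11 (SE), adjusted p = 0.0012). MAPK feedback genes had 0 higher and 3 lower of 10, led by the phosphatase Dusp4, at 63.1, 68.3 and 60.6 RPKM in WT replicates 1, 2 and 3 and 10.7, 8.65 and 9.63 RPKM in KO replicates 1, 2 and 3 (log2 difference -2.61 ± 0.09 (SE), adjusted p = 8.6e-07). Of 24 tested genes of sterol and fatty acid synthesis 0 were higher and 3 lower, including the desaturase Scd2, at 49.7, 54.7 and 51.8 RPKM in WT replicates 1, 2 and 3 and 13.9, 13.7 and 13.96 RPKM in KO replicates 1, 2 and 3 (log2 difference -1.83 ± 0.06 (SE), adjusted p = 7.5e-07). Glycolysis and hypoxia genes had 1 higher, Pdk1 (0.60), and 1 lower, Egln3 (-1.63), of 21, close to the shares over all genes. Amino acid and Atf4 genes had 1 higher, Mthfd2 (0.60), and 0 lower of 18. Of 21 tested interferon-stimulated genes 0 were higher and 0 lower, with a median of -0.22, and the GTPase Gbp2 was at 268, 258 and 284 RPKM in WT replicates 1, 2 and 3 and 184, 358 and 188 RPKM in KO replicates 1, 2 and 3, with KO replicate 2 highest.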
